A study of Mus musculus with 6 samples.

Results

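The heat shock chaperones and Hsf1 are described here in AE9a leukemia cells from central bone marrow (CBM) and endosteal bone marrow (EBM). They comprise 10 genes: the transcription factor Hsf1, the inducible HSP70 genes Hspa1a and Hspa1b, the constitutive HSP70 gene Hspa8, the HSP90 genes Hsp90aa1 and Hsp90ab1, the HSP40 gene Dnajb1, the HSP110 gene Hsph1, and the mitochondrial chaperonin genes Hspe1 and Hspd1. They were found by gene name in a table of counts for 54532 genes, and all 10 were among the 13352 genes kept by the filter on low counts. The genes were selected on the difference between EBM and CBM in these libraries, so their values in that comparison are given as a description, with no test.

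The study asked how leukemia cells lying along the bone surface differ in their transcripts from those in the marrow cavity. RNA-seq was done on 6 libraries, 3 labelled CBM and 3 labelled EBM, all from C57BL/6 mice carrying AE9a leukemia at the third generation of transplantation. CBM cells were flushed from femurs and tibias. After flushing, the femurs and tibias were digested with collagenase to release EBM cells, so only EBM cells went through a warm enzyme digestion. Region and digestion therefore cannot be told apart in any comparison below. In both groups the leukemia had been started by retroviral delivery of AE9a, a truncated form of the AML1-ETO fusion, into c-Kit+ hematopoietic stem and progenitor cells, so both groups represent 1 transplantable model. Per the labels, cells were kept in serum-containing medium around sorting. The labels give no age, and nothing in them says that the replicates came from separate mice, so the p-values below measure the spread between these libraries only.

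Heat shock proteins are chaperones that hold, fold or unfold other proteins. HSF1 is the main transcription factor of the heat shock response: it is held inactive by chaperones in unstressed cells and, when misfolded proteins draw those chaperones away, it forms trimers that bind heat shock elements in the promoters of chaperone genes. Hspa1a and Hspa1b are intronless genes known for a low basal level and a fast, strong induction, whereas Hspa8 and Hsp90ab1 are abundant in most growing cells without stress.

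Counts on genes were between 17078883 and 19462964 per CBM library and between 16436526 and 18413131 per EBM library, and 3 counts correspond to between 0.149 and 0.193 CPM, the usual scaling of counts to library size, here with TMM factors. The first principal component of log2 CPM, with 53.0% of the variance, did not separate the regions: CBM replicate 1 scored 38.5 and EBM replicate 1 scored 36.4, while CBM replicate 2 scored -42.9 and EBM replicate 3 scored -46.0. The labelled cell type was checked against its markers. The summed level of 5 blast markers (Kit, Cd34, Runx1, Mpo and Ptprc) was between 560 and 964 CPM in CBM and between 575 and 882 CPM in EBM, almost all of it from Kit and Runx1, while Ptprc, the pan-leukocyte antigen CD45, was at a mean of 1.30 CPM in CBM and 2.20 CPM in EBM. In bulk samples, fewer cells of a type and less RNA per cell cannot be told apart.

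The inducible HSP70 pair lies on mouse chromosome 17. Hspa1a (ENSMUSG00000091971) spans chr17:34969190-34972156 and Hspa1b (ENSMUSG00000090877) chr17:34956436-34959238 on GRCm38, both on the minus strand, with 9951 bases between them. Each has 1 annotated transcript. Over the 250 bases before the start the genes differ at 3 bases, and both stretches are shown because these are the members with the widest separation between the regions. The capitals mark the match to GAANNTTC, a pair of inverted units of the heat shock element, at positions -104 to -97 from the start in each gene, where -1 is the last base before the start.
Hspa1a, chr17:34972157-34972406, minus strand: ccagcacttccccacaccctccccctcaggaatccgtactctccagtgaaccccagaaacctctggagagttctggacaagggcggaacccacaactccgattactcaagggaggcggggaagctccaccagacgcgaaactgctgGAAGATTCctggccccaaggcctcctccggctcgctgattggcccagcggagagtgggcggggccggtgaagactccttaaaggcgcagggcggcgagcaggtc
Hspa1b, chr17:34959239-34959488, minus strand: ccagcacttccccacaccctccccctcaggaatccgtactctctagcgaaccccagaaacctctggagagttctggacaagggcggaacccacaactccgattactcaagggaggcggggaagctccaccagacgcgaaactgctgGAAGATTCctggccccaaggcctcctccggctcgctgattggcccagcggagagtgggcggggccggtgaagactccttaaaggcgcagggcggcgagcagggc

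These bases, and the others printed here, are from the RefSeq promoter table for GRCm38.p6, which holds 250 bases before and 50 after each start. It had 9 promoters for 6 of the 10 members. Hsf1, Hspa8, Hsp90aa1 and Hsp90ab1 had none. The stricter element searched, 3 alternating units spelled GAANNTTCNNGAA or TTCNNGAANNTTC, was in 198 of the 32851 promoters of the table (0.603%), and the looser pair, GAANNTTC or TTCNNGAA, was in 4946 (15.1%). Both spellings of the strict form cover both strands, and each strict match also contains the looser form. The strict form was found for Hspd1, Hspe1 and Hsph1. It was not in the windows of Hspa1a, Hspa1b and Dnajb1, and the looser form was not in those of Dnajb1. The search took only exact units in the spacing spelled here, so elements with altered units or spacing would be missed. A match is a run of letters and was not tested as a binding site.

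Hspd1 and Hspe1 lie head to head, and their matches are the same bases of chromosome 1 read on either strand. In Hspe1 the capitals run from position -89 to -72, and in Hspd1 from -144 to -127 of 1 of its 2 starts, in each case as a pair of overlapping strict matches. In Hsph1 the match lies after the start, at positions 16 to 28 of the stretch counted from the nearer of its 2 annotated starts. The 3 stretches, with the strict matches in capitals, are shown because they hold the strict form. The log2 fold changes of these genes were 0.17 for Hspe1, 0.02 for Hspd1 and 0.55 for Hsph1. Whether the matches bear on these values was not tested.
Hspe1, chr1:55088053-55088082, plus strand: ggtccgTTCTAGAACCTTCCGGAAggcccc
Hspd1, chr1:55088053-55088082, minus strand: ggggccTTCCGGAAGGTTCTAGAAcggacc
Hsph1, chr5:149636282-149636306, minus strand: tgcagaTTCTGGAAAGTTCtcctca

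The 2 inducible HSP70 genes stood apart from the other members. Hspa1b had 167, 71 and 68 counts in CBM replicates 1 to 3 and 2033, 904 and 912 counts in EBM replicates 1 to 3, or 9.50, 3.74 and 3.37 CPM against 112, 50.3 and 58.6 CPM. The regions did not overlap, and the lowest EBM library was several times the highest CBM library. CBM averaged 5.54 ± 3.44 CPM and EBM 73.7 ± 33.6 CPM (SD, n = 3 each), a 13.3-fold difference, with a log2 fold change of 3.74 (SE 0.52). From the summed counts alone, 3849 against 306, the ratio was 13.8 with an exact 95% interval of 12.3 to 15.6, which covers counting error only and not the spread between libraries.

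Hspa1a, the neighbouring copy, had 2 counts in each CBM library and 53, 50 and 22 counts in EBM replicates 1 to 3. The CBM libraries were all under the floor of 3 counts. CBM averaged 0.106 ± 0.00732 CPM and EBM 2.37 ± 0.835 CPM (SD, n = 3 each). The fitted log2 fold change was 4.40 (SE 0.46), a value that depends on the prior count added to so few counts. The ratio of summed counts, 125 against 6, was 22.9, with a wide exact 95% interval for counting error of 10.2 to 63.5. Among all 13352 genes tested, none had a larger log2 fold change than Hspa1a, and only 2, Hspa1a and the nuclear receptor gene Nr4a3, had a larger one than Hspa1b. In all, 339 genes had an absolute log2 fold change above 1.

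The split of reads between these copies is uncertain. Their transcripts, 2967 bases for Hspa1a and 2803 bases for Hspa1b, were identical at 94.1% of aligned bases. Of all windows of 150 bases, the read length in the study's methods, 38.1% of those of Hspa1a and 40.5% of those of Hspa1b were present in the other, and none of either was present in Hspa8 or Hspa2. In Hspa1l, 2.98% of the windows of Hspa1a and 1.47% of those of Hspa1b were present. Hspa1a gave between 1.18% and 2.86% of the pair's counts in CBM and between 2.36% and 5.24% in EBM. A gene on the opposite strand, Gm20481, shares 564 exonic bases with Hspa1a (19.0% of its exons) and had 0 counts in all 6 libraries. How reads over such bases were assigned was not given in the sources used here.

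The sum of both genes does not depend on that split. Reads matching both copies could still have been dropped or counted more than once, which also limits the shares and ratios built on the sum below. The sum was 169, 73 and 70 counts in CBM and 2086, 954 and 934 counts in EBM, with means of 5.64 ± 3.45 CPM and 76.1 ± 34.0 CPM (SD, n = 3 each). This was a 13.5-fold difference, with a log2 fold change of 3.76 (SE 0.51). In both regions replicate 1 was the highest library. Without CBM replicate 1 the log2 fold change was 4.38, and without EBM replicate 1 it was 3.33. These were the highest and lowest values when each library was left out in turn.

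**Figure D1:**
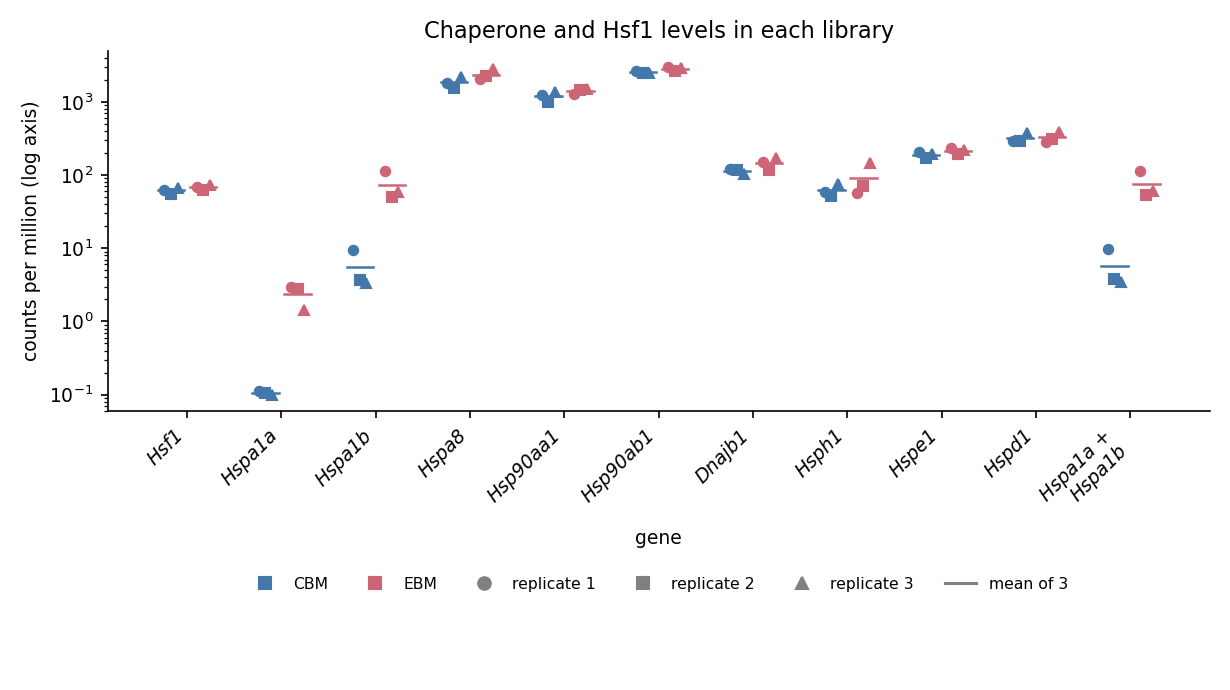
Level of each gene in CPM (vertical axis, logarithmic) in each of the 6 libraries, with CBM in blue, EBM in red, replicates 1 to 3 as circle, square and triangle and a bar at the mean of 3. The points of Hspa1a, Hspa1b and their sum do not overlap between the regions, whereas those of the other 8 genes do.

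The constitutive cytosolic HSP70, Hspa8 (chr9:40800984-40810087, plus strand), which serves folding and clathrin uncoating in unstressed cells, had 1820, 1560 and 2156 CPM in CBM replicates 1 to 3 and 2032, 2242 and 2787 CPM in EBM replicates 1 to 3. The regions overlapped, with CBM replicate 3 above EBM replicate 1. CBM averaged 1845 ± 299 CPM and EBM 2354 ± 390 CPM (SD, n = 3 each), for a log2 fold change of 0.35 (SE 0.17). Set against this large pool, the inducible pair remained a small part of cytosolic HSP70 transcripts. Per kilobase of gene length, Hspa1a and Hspa1b together made up 0.804%, 0.376% and 0.246% of the summed level of Hspa8, Hspa1a and Hspa1b for the 3 CBM replicates in order. For the EBM replicates the shares were 7.99%, 3.50% and 3.19%. Hspa8 was thus between 123 and 405 times the inducible pair in CBM and between 11.5 and 30.3 times in EBM.

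**Figure D2:**
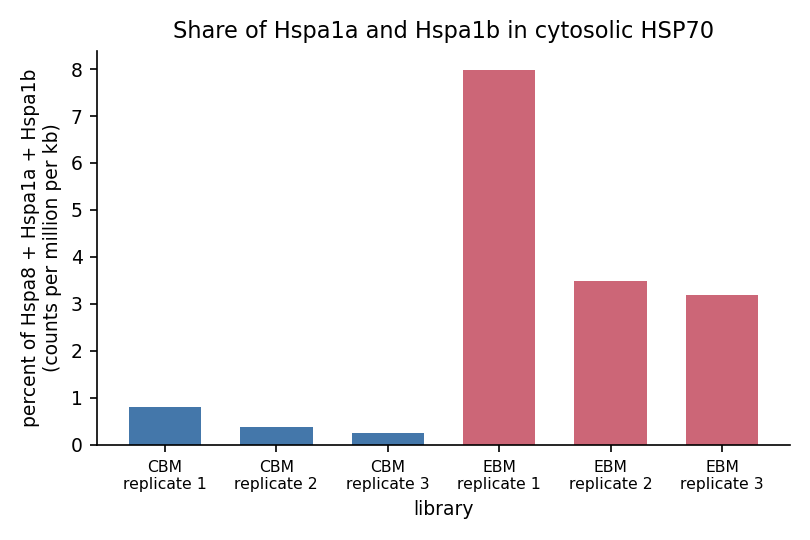
Share of Hspa1a and Hspa1b (vertical axis, percent of the summed level of Hspa8, Hspa1a and Hspa1b in CPM per kilobase) in each library, with CBM in blue and EBM in red. The share was at most 0.804% in the CBM libraries and at least 3.19% in the EBM libraries.

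Hsf1 itself (chr15:76477422-76501913, plus strand) differed little. It had 63.4, 55.3 and 66.9 CPM in CBM replicates 1 to 3 and 69.4, 62.7 and 73.8 CPM in EBM replicates 1 to 3. The ranges overlapped, and the means were 61.9 ± 5.96 and 68.7 ± 5.58 CPM (SD, n = 3 each), with a log2 fold change of 0.15 (SE 0.11). HSF1 is mainly controlled by its trimerization and modification, which transcript counts do not measure.

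Of the partners of HSP70, Dnajb1 (chr8:83608193-83612653, plus strand), the HSP40 that delivers clients and stimulates the ATPase of HSP70, had 122, 118 and 103 CPM in CBM replicates 1 to 3 and 151, 118 and 168 CPM in EBM replicates 1 to 3. EBM replicates 1 and 3 were above all CBM libraries and EBM replicate 2 was not. CBM averaged 114 ± 10.3 CPM and EBM 146 ± 25.5 CPM (SD, n = 3 each), for a log2 fold change of 0.35 (SE 0.15).

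Hsph1 (chr5:149614287-149636376, minus strand), the HSP110 that exchanges nucleotide on HSP70, had 59.2, 52.4 and 76.5 CPM in CBM replicates 1 to 3 and 56.2, 71.1 and 148 CPM in EBM replicates 1 to 3. EBM replicate 3 was far above the other 5 libraries, which overlapped. CBM averaged 62.7 ± 12.4 CPM and EBM 91.8 ± 49.2 CPM (SD, n = 3 each), and the log2 fold change of 0.55 (SE 0.36) became 0.01 without EBM replicate 3.

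Both cytosolic HSP90 genes, whose products mature kinases and steroid receptors, overlapped between the regions. Hsp90ab1 (chr17:45567775-45573271, minus strand), the constitutive form, had 2662, 2444 and 2493 CPM in CBM replicates 1 to 3 and 2977, 2654 and 2884 CPM in EBM replicates 1 to 3, and only EBM replicate 2 lay within the range of the CBM libraries. Its log2 fold change was 0.16 (SE 0.09). Hsp90aa1 (chr12:110690605-110702728, minus strand), the stress-responsive form, had 1259, 996 and 1358 CPM in CBM replicates 1 to 3 and 1286, 1432 and 1490 CPM in EBM replicates 1 to 3. Its log2 fold change was 0.22 (SE 0.14), and the level of Hsp90ab1 per kilobase was between 2.41 and 3.22 times that of Hsp90aa1 in every library.

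The mitochondrial chaperonin is built from HSP60 rings (Hspd1) capped by HSP10 (Hspe1). Hspe1 (chr1:55088132-55091307, plus strand) had 207, 171 and 192 CPM in CBM replicates 1 to 3 and 234, 192 and 217 CPM in EBM replicates 1 to 3, with a log2 fold change of 0.17 (SE 0.12). Hspd1 (chr1:55077835-55088243, minus strand) had 294, 293 and 380 CPM in CBM replicates 1 to 3 and 283, 312 and 386 CPM in EBM replicates 1 to 3. Replicate 3 was the highest library of Hspd1 in both regions, and its log2 fold change of 0.02 (SE 0.16) was the lowest of the 10. The gene bodies share 112 bases at their 5′ ends, and reads there cannot be told apart without the strand. Of 11 pseudogenes named after Hspd1 or Hspe1 in the table, 4 had any count, and the most abundant, Hspd1-ps3, reached at most 3.62% of Hspd1.

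All 10 members had a higher mean in EBM, and their median log2 fold change was 0.29, against 0.00 over all genes tested. In 2 of the 10, Hspa1a and Hspa1b, the EBM libraries all lay above the CBM libraries, which was so for 7.47% of all genes tested. Since the genes were chosen for this contrast, nothing follows from these counts. The 8 members other than the inducible pair had log2 fold changes from 0.02 to 0.55, and 7 of them lay within the range from the 5th to the 95th percentile of all genes tested, -0.56 to 0.52. Hsph1 lay just above it.

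**Figure D3:**
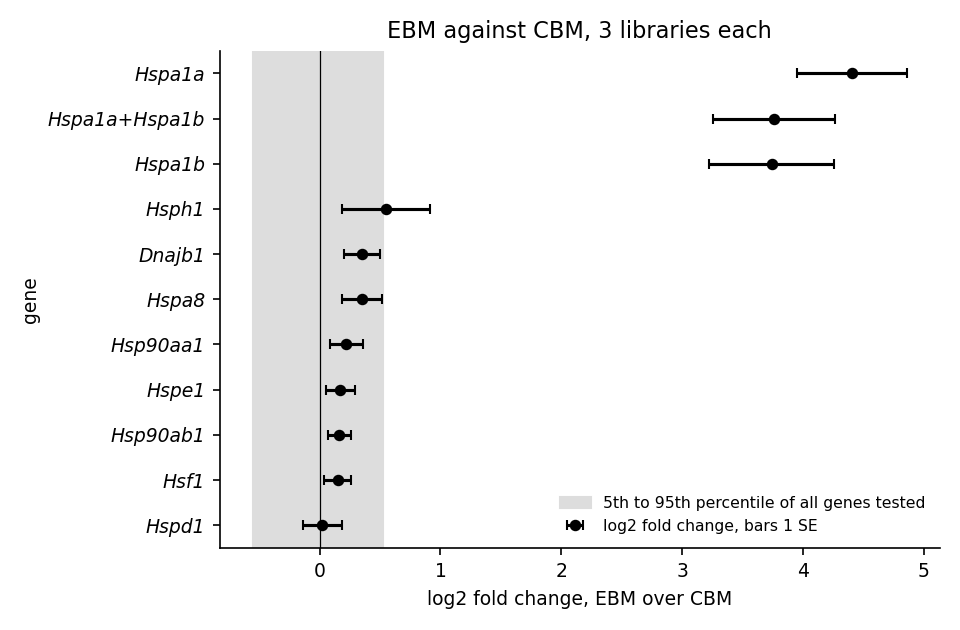
Log2 fold change of EBM over CBM (horizontal axis) of each gene and of the sum of Hspa1a and Hspa1b, with bars of 1 SE from edgeR's fit to all genes and, shaded, the range from the 5th to the 95th percentile of all genes tested. Hspa1a at 4.40 and Hspa1b at 3.74 stand far from the other members, which lie between 0.02 and 0.55.

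The members also differed among themselves in level, which the selection did not use. For Hspa1a and Hspa1b, however, the mean over all 6 libraries contains the difference between regions that the selection used. Per kilobase of gene length, Hsp90ab1 was the highest, with means of 845 CPM per kilobase in CBM and 946 in EBM. In the order of the mean over all 6 libraries, with values for CBM and EBM respectively, it was followed by Hspa8 at 429 and 547 CPM per kilobase, Hsp90aa1 at 306 and 357, Hspe1 at 129 and 145, Hspd1 at 122 and 124, and Dnajb1 at 35.7 and 45.6. Next were Hsph1 at 8.63 and 12.6 CPM per kilobase, Hsf1 at 8.72 and 9.67, Hspa1b at 1.98 and 26.3, and Hspa1a at 0.0358 and 0.800. Within CBM, Hsf1 was above Hsph1, and Hspa1b ranked ninth of the 10 in CBM and seventh in EBM, above Hsph1 and Hsf1.

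Neighbours in the order over all 6 libraries were compared by an exact two-sided sign-flip permutation test of the log2 difference, with 9 pairs tested. The order was taken from these same libraries, which the p-values do not allow for. In 6 pairs the first gene was above the second in 6 of 6 libraries, which gives the smallest p this design allows (exact permutation p = 0.0312, Benjamini-Hochberg adjusted p = 0.0469). One of the 6 is Hspa1b over Hspa1a, whose read split is uncertain. With these genes as their sum, 8 pairs were tested, the first gene was still above the second in 6 of 6 libraries in 5 of them, and their adjusted p was 0.05 (exact permutation), so that none passed. The smallest of these mean log2 differences was 0.55 ± 0.12 (SD, n = 6), between Hspa8 and Hsp90aa1. Hspe1 and Hspd1 were not separated beyond their spread, with a log2 difference of 0.16 ± 0.25 (SD, n = 6, exact permutation p = 0.188, adjusted p = 0.241), nor were Hsph1 and Hsf1 (0.12 ± 0.46, exact permutation p = 0.688, adjusted p = 0.688). Hsf1 and Hspa1b differed by 0.47 ± 2.10 on the log2 scale (exact permutation p = 0.625, adjusted p = 0.688). Hspa1b was below Hsf1 in the 3 CBM libraries and above it in the 3 EBM libraries, which is the contrast used to choose the members. Without the division by length, Hspd1 came before Hspe1, and with the length of the longest transcript, or without EBM replicate 3, Hsf1 came before Hsph1. Without CBM replicate 3, Hspa1b came before Hsf1.

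Correlations between members over the 6 libraries are a description, since these libraries also differ in region. On the log2 CPM scale, Pearson's r was 0.96 between Hspa1a and Hspa1b, 0.91 between Hspa1b and Hsp90ab1, 0.94 between Hsp90ab1 and Hspe1, 0.92 between Hspa8 and Hsp90aa1, 0.90 between Hspa8 and Hsph1, 0.87 between Hsp90ab1 and Dnajb1, and 0.84 between Hsph1 and Hspd1. Hsf1 had an r of 0.86 with Hspa8, 0.83 with Hspe1 and 0.82 with Hsp90aa1. Hspd1 had an r of -0.11 with Hspa1b and of 0.01 with Hspe1, the gene it shares a promoter region with. The standardised levels of the 10 members, averaged, were -0.36, -1.15 and -0.24 for CBM replicates 1 to 3, and for EBM they were 0.49, 0.12 and 1.15. The 8 other genes closest to that profile by Pearson's r were Efhd2, Mtss1, Ube2m, Bud23, Grpel1, Zfp598, Mrpl50 and BC031181, with r from 0.98 to 0.99 over 6 libraries. Of these, Grpel1 encodes the nucleotide exchange factor of mitochondrial HSP70. The choice of the 8 genes was not stable, since between 1 and 4 of them were among the 8 closest when 1 library was left out.

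The other genes of the chaperone network were taken from 10 lists by role. These were written from general knowledge, but with earlier results of these data known, so counts over them are a description only. The lists hold 132 genes outside the members, of which 113 were tested. Some genes, such as Stip1, Dnaja4, Tcp1 and Cct5, are both in the list of HSF1 targets and in another list. Each counts only once in the totals of this paragraph, but the counts given by list below are not independent. None of these genes passed the quasi-likelihood test of edgeR after Benjamini-Hochberg adjustment over all genes, in which 0% of the 13352 genes passed, and the smallest adjusted p among list genes was 0.206. At an unadjusted p under 0.05, 10 list genes were higher and 1 was lower in EBM, 8.85% and 0.885% of those tested, against 4.01% and 3.9% of all genes. Of the 10 higher genes, 4 were among the 17 tested endoplasmic reticulum chaperones, a list included for comparison. With DESeq2, 1 list gene, Stip1, passed at an adjusted p under 0.05 as higher in EBM, where 0.995% of genes passed in that direction and 0.329% as lower. All EBM libraries lay above all CBM libraries for 14 of the 113 genes (12.4%, against 7.47% of all genes) and below for 4 (3.54%, against 7.65%), namely Dnajb13, Dnajc14, Bag4 and Aarsd1. Of the 113 genes, 89 had a positive and 24 a negative log2 fold change, with a median of 0.12, while over all genes tested 6726 of 13352 (50.4%) had a positive one.

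The known HSF1 target genes outside the members comprised 21 tested genes, of which 20 had a positive log2 fold change, against 50.4% of all genes, with a median of 0.16. Their summed level was between 3470 and 3647 CPM in CBM and between 3962 and 4581 CPM in EBM, and 2 of them had an unadjusted p under 0.05. Stip1, which encodes HOP, the adaptor that passes clients from HSP70 to HSP90, had 3148, 3284 and 4123 counts in CBM replicates 1 to 3 and 4691, 4925 and 4885 counts in EBM replicates 1 to 3. All its EBM libraries were above all CBM libraries, with means of 186 ± 16.8 and 282 ± 28.4 CPM (SD, n = 3 each) and a log2 fold change of 0.61 (SE 0.12). Its adjusted p was 0.206 with edgeR and 0.00485 with DESeq2. Dnaja4, a type I HSP40, had a log2 fold change of 0.44 (SE 0.10, edgeR adjusted p = 0.306, DESeq2 adjusted p = 0.0573), also with no overlap between the regions. Ubb, a polyubiquitin gene, was the most abundant of this list, averaging 827 ± 150 CPM in CBM against 1106 ± 225 CPM (SD, n = 3 each) for EBM, and its regions overlapped. Ppid, a cyclophilin that binds HSP90, was the only one with a negative value, of -0.0037.

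Some classic targets of the heat shock response were at or near 0. Hspb1, the small heat shock protein HSP27, had between 0 and 4 counts per library, and Bag3, which links HSP70 to selective autophagy, between 9 and 17 counts. Of 10 small heat shock protein genes, 4 had no count and 3 were tested, with a median log2 fold change of 0.01. Among the other heat shock factors, Hsf2 had between 1 and 11 counts per library and Hsf4 between 9 and 17. Hsbp1, which binds the trimers of HSF1, had a log2 fold change of 0.16 (SE 0.11).

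The cytosolic chaperonin TRiC, which folds actin and tubulin, and its partner prefoldin had 15 of 15 genes with a positive log2 fold change, against 50.4% of all genes, and a median of 0.18. In 5 of them, Tcp1, Cct2, Cct3, Cct5 and Cct7, all EBM libraries lay above all CBM libraries, against 7.47% of all genes. Cct7 had the smallest unadjusted p among them, with 305 ± 24.3 CPM for CBM against 363 ± 13.1 CPM for EBM (SD, n = 3 each) and a log2 fold change of 0.25 (SE 0.10, edgeR adjusted p = 0.594). Cct2, the most abundant, was at 470 ± 12.6 and 533 ± 45.4 CPM. Of 24 tested J-domain genes, 18 had a positive value, with a median of 0.08. Dnajb2 had the largest of these, 0.74 (SE 0.26, edgeR adjusted p = 0.547), with 203, 220 and 183 counts in CBM replicates 1 to 3 and 448, 290 and 200 counts in EBM replicates 1 to 3. Dnajc14 lay the other way, at -0.24 (SE 0.11), with all EBM libraries below the lowest CBM library.

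The 19 tested HSP90 co-chaperones had 12 positive and 7 negative values, with a median of 0.10. Beside Stip1, Sugt1, an HSP90 partner at kinetochores, had a log2 fold change of 0.24 (SE 0.10, edgeR adjusted p = 0.608), and the kinase adaptor Cdc37 0.16 (SE 0.09). Aarsd1, at 35, 20 and 45 counts in CBM replicates 1 to 3 and 13, 18 and 14 counts in EBM replicates 1 to 3, had -1.01 (SE 0.37, edgeR adjusted p = 0.566). Of 8 nucleotide exchange and BAG factors, 5 had a positive value, with a median of 0.11, and Bag4 was lower in every EBM library than in every CBM library (log2 fold change -0.19, SE 0.11). Of the 7 other HSP70 and HSP110 genes tested, 4 had a positive value, with a median of 0.03. Hspa1l, the testis-type gene that starts 546 bases beyond Hspa1a, had 19, 37 and 26 counts in CBM replicates 1 to 3 and 33, 38 and 29 counts in EBM replicates 1 to 3, which overlap. Hspa2, another HSP70, averaged 30.5 ± 5.24 CPM in CBM against 25.3 ± 2.22 CPM (SD, n = 3 each) for EBM.

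In the other compartments, 9 of 11 tested mitochondrial chaperones and proteases had a positive value, with a median of 0.11, and Grpel1 had a log2 fold change of 0.31 (SE 0.12, edgeR adjusted p = 0.596) with no overlap. The endoplasmic reticulum chaperones, which answer to the unfolded protein response rather than to HSF1, had 15 of 17 positive values, against 50.4% of all genes, and a median of 0.28, the highest of the 10 lists, with no gene free of overlap. Hspa5, the HSP70 of that compartment, had 24652, 32963 and 28532 counts in CBM replicates 1 to 3 and 31370, 46828 and 71214 counts in EBM replicates 1 to 3. EBM replicate 3 was the highest library of Hspa5, as it was of Hsph1 and Hspa8, whereas EBM replicate 1 was the highest of Hspa1b. Its log2 fold change was 0.97 (SE 0.33, edgeR adjusted p = 0.545).

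**Figure D4:**
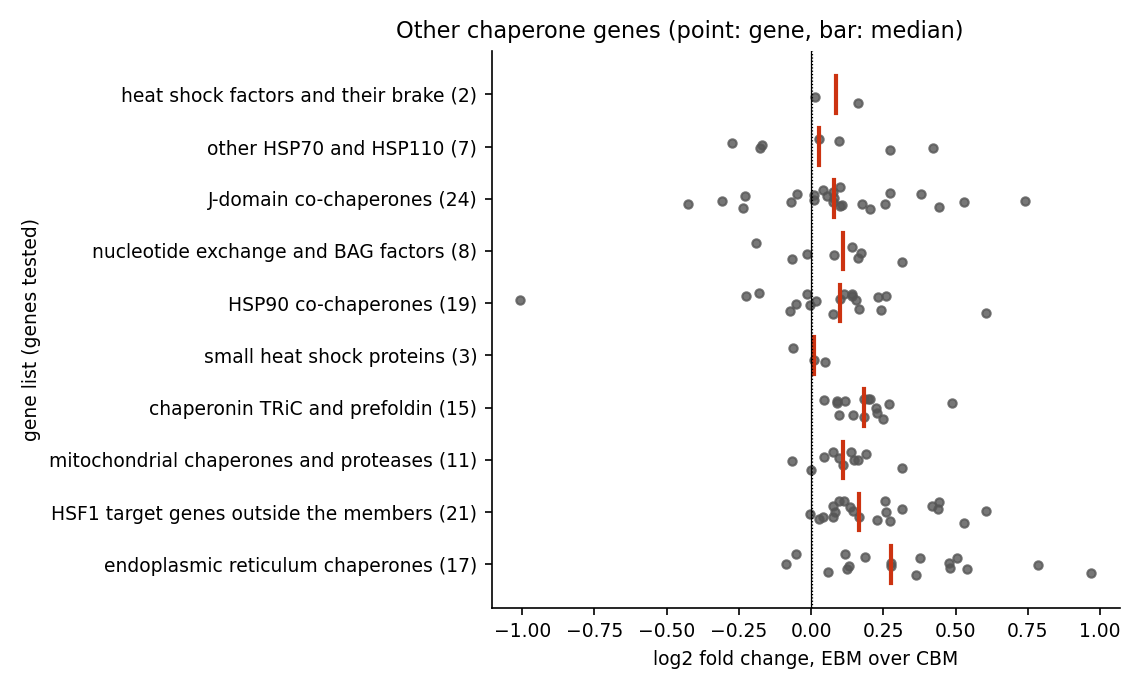
Log2 fold change of EBM over CBM (horizontal axis) of each tested gene outside the members, in 10 lists by role with the number of genes tested in brackets, a red bar at the median of each list and a dotted line at the median of all genes tested, 0.00. The medians run from 0.01 for the small heat shock proteins to 0.28 for the endoplasmic reticulum chaperones, and Aarsd1 at -1.01 is the lowest point.

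Values of other cell types and of cell handling are given beside the inducible pair. Of 10 osteoblast and bone markers, 4 (Bglap2, Sp7, Alpl and Dmp1) had no count in any library, and the summed level was between 8.08 and 12.4 CPM in CBM and between 7.62 and 9.41 CPM in EBM, nearly all of it Runx2. The 5 stromal markers summed to at most 0.891 CPM in any library and the 5 endothelial markers to at most 3.37 CPM. Macrophage and osteoclast markers were between 276 and 547 CPM in CBM and between 262 and 569 CPM in EBM, nearly all of it Acp5, with Adgre1, Csf1r, C1qa and Ctsk each at a mean under 1 CPM. Erythroid markers were between 2037 and 5434 CPM in CBM and between 2467 and 3766 CPM in EBM, and lymphoid markers were at most 2.93 CPM in any library.

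The summed level of 13 immediate early genes, which respond within minutes to handling and to many other stimuli, was 10433, 7016 and 3867 CPM in CBM replicates 1 to 3 and 9961, 8194 and 8899 CPM in EBM replicates 1 to 3. The regions overlapped. Of these genes, 8 had a positive and 5 a negative log2 fold change, with a median of 0.42, against 0.00 over all genes tested. Fos had 7325, 1941 and 1054 counts in CBM replicates 1 to 3 and 1832, 1456 and 737 counts in EBM replicates 1 to 3, which overlap. Nr4a1, an orphan nuclear receptor gene, had 213, 44 and 92 counts in CBM replicates 1 to 3 and 1333, 1016 and 158 counts in EBM replicates 1 to 3, with a log2 fold change of 2.89 (SE 0.85, edgeR adjusted p = 0.435, DESeq2 adjusted p = 0.137). The AP-1 genes Junb and Jund had log2 fold changes of 0.52 (SE 0.23) and 0.51 (SE 0.19), with all EBM libraries above all CBM libraries in both. Dusp1, a MAP kinase phosphatase gene, lay the other way without overlap, at -1.13 (SE 0.29), and its adjusted p was 0.361 with edgeR and 0.0102 with DESeq2. The part of the digestion in the levels of Hspa1a and Hspa1b was not tested.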

How the data were processed

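The authors prepared directional, rRNA-depleted, paired-end libraries and deposited raw counts per gene with gene lengths, for 3 CBM and 3 EBM libraries. The submitters' processing notes name HISAT2 2.0.5 and mm10. The counting tool, its strand setting and the annotation are not given in the sources used here. Coordinates of all 10 members were the same as in GENCODE M21 (GRCm38). Counts were filtered with filterByExpr, normalized by TMM and tested with the quasi-likelihood test of edgeR 4.0.16 without a block, with Benjamini-Hochberg adjustment over all genes at 0.05. SE is the absolute log2 fold change divided by the square root of F. DESeq2 1.42.0, limma-voom (limma 3.58.1), other size factors and filters, the replicate block, summed paralogs and pseudogenes, and each library left out were alternatives. Levels per kilobase used the deposited length. The fits were tested on simulated data. No libraries of a group were duplicates, with chi-square values of 11.9 or more per degree of freedom.

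The members and gene lists were chosen with earlier results of these data known. Named genes are the members, the 2 list genes with the smallest edgeR p in each direction and the most abundant gene of a list, any list gene past the threshold, and the 8 genes most like the members. Hspb1, Bag3, Hsf2, Nr4a3, the immediate early genes other than Fos, list genes named only for not overlapping, the upstream stretches of Hspa1a and Hspa1b, and the lists' sums set beside each other were chosen after their values were seen. Promoters are otherwise shown for members with a strict match. Intervals and floors cover counting error only. The intervals take each read as an independent molecule, which PCR copies are not, so they may be too narrow.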

Additional observations from a re-analysis of the deposited data

How the results depend on the processing

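The log2 fold changes of the 10 members and of the summed pair moved by less than 1 SD between libraries under every alternative run. Over the fits with each library left out, Hspa1b ran from 3.30 to 4.37, Hspa1a from 4.23 to 4.66 and the sum from 3.33 to 4.38. Hsph1 ran from 0.01, without EBM replicate 3, to 0.80, and Hspd1 from -0.12 to 0.16, so its direction depends on single libraries. Genes passing an adjusted p under 0.05 numbered 0 with edgeR, 173 with DESeq2 and 40 when edgeR was run without the low-count filter. Chaperone list genes passing numbered 0 with edgeR and 1 with DESeq2 (Stip1), and the cause of these differences was not tested. Of neighbouring member levels, 6 pairs passed, and 0 with Hspa1a and Hspa1b as their sum, an alternative chosen after seeing the data, in which fewer pairs put the smallest adjusted p at 0.05. Of the 8 genes most like the members, between 1 and 4 were kept when a library was left out, and 7 were among the 50 genes that tie at the top by Spearman's rho.

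The labels do not say whether libraries with the same number came from the same mouse. Deviations from group means correlated with r of 0.68, -0.20 and 0.20 for the same number and up to 0.51 for different numbers. With 3 libraries per group, these values cannot decide whether the numbers are pairs. With the replicate block, edgeR called 0 genes, 1203 at an unadjusted p under 0.05 against 1056 without it. Of the list genes, 0 were called, with 17 against 11 at an unadjusted p under 0.05. The sum of Hspa1a and Hspa1b had a log2 fold change of 3.82. At most 2 counts per CBM library limit the precision of Hspa1a.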
